A study of Rattus norvegicus with 20 samples.

Results

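The expression of 37 genes for the uptake, storage and oxidation of fatty acids was examined in right ventricles of Wistar rats after pulmonary banding. This chamber drives blood through the lungs. The band narrows the pulmonary artery, so the chamber works against a raised load, whereas the sham operation leaves out the band. The samples, all of the wistar strain and operated on as pups, formed 4 groups: banding at 8 weeks (4 libraries), banding at 4 weeks (5), sham at 8 weeks (5) and sham at 4 weeks (5). Rats were 11 weeks old at the later time and 7 weeks old at the earlier, so time after surgery and age cannot be told apart, and the labels give neither sex nor batch. A 5th sample of banding at 8 weeks, replicate 2, was not analysed here. The labels number the samples without saying that each number is a separate animal, so p-values measure only the spread between these samples. Members were chosen by name from a list of 37 symbols, and each matched 1 of the 18282 transcript IDs of the deposited table. This list and the other gene lists were set with earlier results of these data known. Shares of a list set beside those of all tested genes are therefore descriptions. Levels are normalized counts, that is reads divided by a size factor for each library, and are not scaled by transcript length. A gene was tested where it reached a normalized count of 10 in at least 4 libraries, which held for 35 of the 37 members and for 10926 IDs in all. It was called at an adjusted p under 0.05 in limma.

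The libraries held 2.70 to 8.54 M recovered reads. The shallowest were replicate 1 of banding at 8 weeks (2.70 M) and replicate 1 of sham at 8 weeks (2.81 M). The tested members had between 16 and 31512 recovered reads in a library. The 10 measured cardiomyocyte markers summed to at least 402222 normalized counts in every library. Myl7, the atrial myosin light chain, exceeded 1000 normalized counts in 7 of the 19 libraries and reached 17580.0 in replicate 1 of sham at 8 weeks. The counts given below were therefore also computed without these 7 libraries and without the 2 shallowest, both chosen after the data were seen.

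Long-chain fatty acids are the main fuel of the adult heart. They are freed from circulating lipoproteins, carried into the muscle cell, joined to coenzyme A and passed into mitochondria on carnitine. There the beta-oxidation spiral shortens them in repeated rounds of dehydrogenation, hydration, oxidation and thiolysis, and flavoproteins hand the electrons on to the respiratory chain. Fatty acids that are not burned are stored as triglyceride in lipid droplets and released again by lipases. In rodents, PPAR-alpha and the estrogen-related receptors are well-known regulators of many of these genes.

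At 8 weeks after surgery the pathway was lower in banded ventricles at every step. Of the 35 tested members, 32 fell and 1 rose, against 16.6% of all tested genes that fell and 16.7% that rose. The members had a median log2 fold change of -0.83, against 0.01 for all tested genes, and 12 of them fell by at least 2-fold. In 28 of 35 members every banded library lay below every sham library (12.7% of all tested genes), and in 1 member every banded library lay above (12.5%). The largest fall by fold change was that of Ucp3 (NM_013167), at -1.96 ± 0.37 (SE), followed by those of Hadh at -1.58 ± 0.11 and Ech1 at -1.50 ± 0.13. This order rests on the libraries and the fit: without the 7 libraries with high Myl7 the log2 fold change of Ucp3 was -1.12, behind -1.59 for Hadh and -1.43 for Ech1. In the authors' deposited table it was -1.18 for Ucp3, -1.52 for Hadh and -1.41 for Ech1. The member that rose was Acsl5. Acadl and Ucp2 did not pass the test. Without the 7 libraries with high Myl7, which left 3 banded and 2 sham libraries at 8 weeks, 28 members fell and 1 rose. The calls lost were those of Cd36, with a log2 fold change of -0.31 without these libraries against -0.32 with all, of Lipe (-0.52 against -0.61), of Cpt1a (-0.49 against -0.78) and of Cpt1b (-0.18 against -0.26). Without the 2 shallowest libraries 32 members fell and none rose, and Acsl5 lost its call.

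At 4 weeks the same direction was already present with smaller changes. Of the 35 members, 27 fell and 0 rose (limma), where 9.82% of all tested genes fell and 9.27% rose. At an unadjusted p under 0.05, 28 were lower and 0 higher, where 30.4% of all tested genes passed in either direction, and neither edgeR nor DESeq2 called a rise. The median log2 fold change was -0.49, against 0.00 for all tested genes, and 2 members, Hadh and Ucp3, fell by at least 2-fold. In 23 of 35 members all banded libraries lay below all sham libraries (6.75% of all tested genes). The 2 comparisons have no library in common, but 1 fit of all 4 groups gave both the same estimate of each gene's spread. All 27 members that fell at 4 weeks also fell at 8 weeks, and a further 5 fell at 8 weeks alone. The 5 were Cd36, Slc27a1, Acsl6, Cpt1b and Etfa, and for none of them did the difference between the times pass in limma. Without the libraries with high Myl7, which left 4 banded and 3 sham libraries at 4 weeks, 25 members fell. Lipe lost its call at a log2 fold change of -0.38 without these libraries against -0.38 with all, Cpt1a at -0.41 against -0.49, and Dgat2 at -0.57 against -0.80. Acsl6 gained a call at -0.53 against -0.41. In the authors' deposited table of the 8-week comparison 32 members were lower and 1 was higher at an adjusted p under 0.05, and in that of the 4-week comparison 27 were lower and 0 higher.

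**Figure D1:**
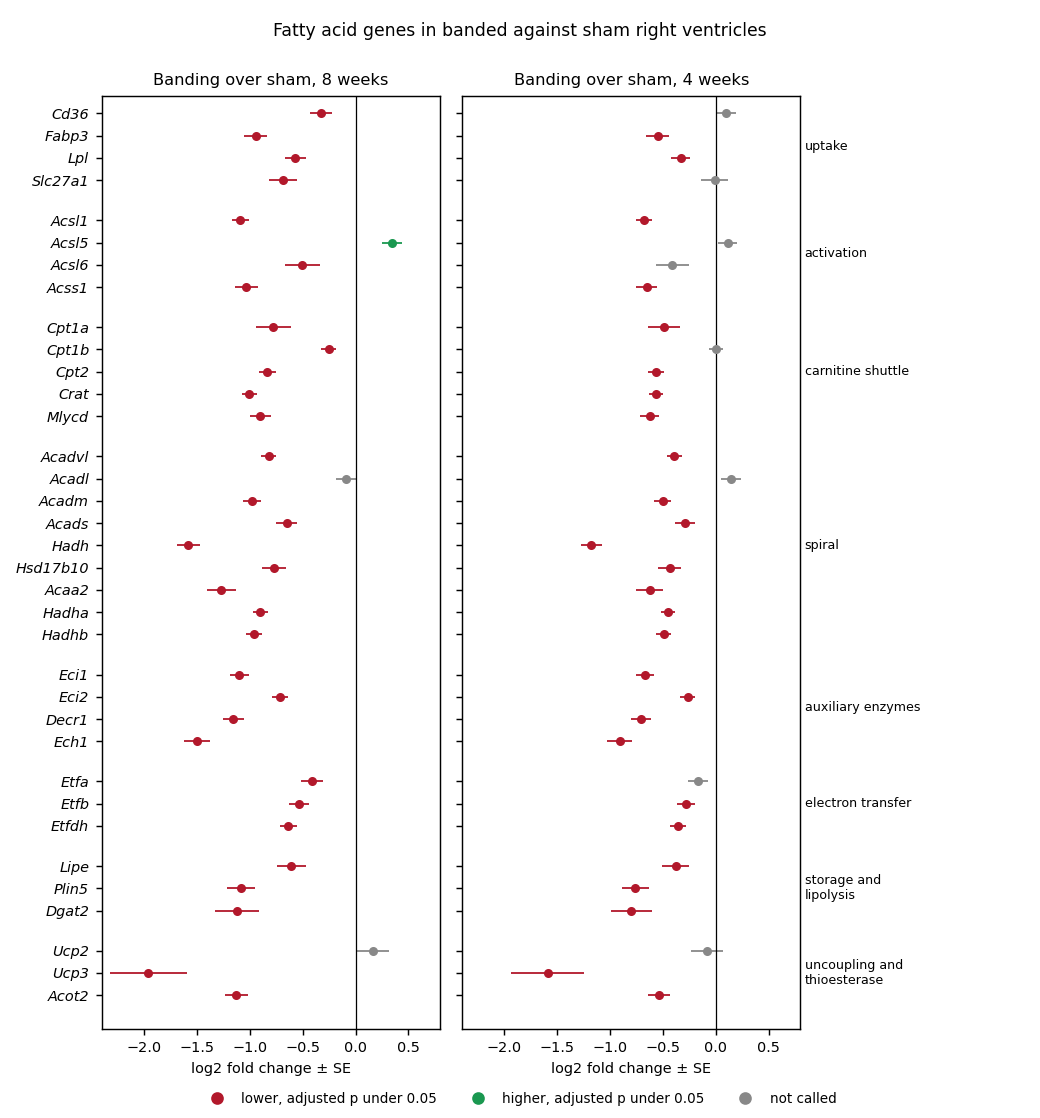
Log2 fold change of banding over sham for the 35 tested members (± SE, limma on log2 of the normalized count plus 1), at 8 weeks on the left and at 4 weeks on the right, grouped by step. Red points fell, the green point rose, and grey points did not pass the test; 32 points are red at 8 weeks and 27 at 4 weeks.

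The uptake genes changed less than most other steps, with a median log2 fold change of -0.63 at 8 weeks and -0.17 at 4 weeks. Fabp3 (NM_024162), the fatty acid binding protein of heart muscle, held 12214, 8469.9, 10417 and 9509.8 normalized counts in banded ventricles at 8 weeks, against 15894, 20884, 19135, 20734 and 20776 in sham. The groups did not overlap, and Fabp3 fell by 0.95 ± 0.11 on the log2 scale (limma, adjusted p = 9.38e-07). At 4 weeks it held 12146, 11477, 10606, 12289 and 12281 in banding and 16656, 19101, 14021, 20233 and 16725 in sham, and it fell by 0.55 ± 0.11 (limma, adjusted p = 0.000619). Cd36 (NM_031561), the membrane receptor that takes up long-chain fatty acids, behaved less uniformly. It held 2529, 1860.2, 1742 and 2269.6 in banding and 2089, 2785, 2569, 2776 and 2866 in sham at 8 weeks. These groups overlapped, with replicate 1 of banding high and replicate 1 of sham low. The fall of 0.32 ± 0.10 passed the test (limma, adjusted p = 0.0188), but not without banding replicate 3 (-0.27, adjusted p = 0.0721) or banding replicate 4 (-0.24, adjusted p = 0.0908). At 4 weeks Cd36 averaged 2180.2 ± 153 in banding and 2042 ± 174 in sham (SD, n = 5 each) and was not called.

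Lpl, the lipoprotein lipase that frees fatty acids in the capillary bed, fell at both times without overlap of the groups. It ranged over 13470.2 to 18351 in banding and 21345 to 27361 in sham at 8 weeks, with log2 fold changes of -0.57 ± 0.10 at 8 weeks and -0.33 ± 0.09 at 4 weeks. Slc27a1, the fatty acid transport protein FATP1, fell at 8 weeks alone. Its levels were 306 ± 71.8 in banding (n = 4) and 486 ± 34.4 in sham (n = 5) at 8 weeks, and 399 ± 80.1 in banding and 396 ± 17.8 in sham at 4 weeks (SD, n = 5 each). The log2 fold changes were -0.69 ± 0.13 at 8 weeks and -0.01 ± 0.12 at 4 weeks, and their difference of -0.68 ± 0.18 did not pass after adjustment (limma, adjusted p = 0.146).

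Among the enzymes that activate fatty acids with coenzyme A, the long-chain isoforms went in different directions. Acsl1 (NM_012820), the main long-chain acyl-CoA synthetase of the heart, held 6278, 5088, 5400.4 and 5568 normalized counts in banded ventricles at 8 weeks, against 10535, 12725, 12059.6, 11959 and 12077 in sham. The groups were far apart and differed by -1.09 ± 0.08 on the log2 scale (limma, adjusted p = 9.9e-10). At 4 weeks Acsl1 held 6021, 5917, 6212, 6889 and 6129 in banding and 10253, 11119.8, 8820.5, 9935 and 9813 in sham, again without overlap, and changed by -0.68 ± 0.07 (limma, adjusted p = 8.67e-07). Acsl5 (NM_053607), an isoform best known from intestine and liver, was the single member that rose. At 8 weeks it held 393, 312, 322 and 333 in banding and 252, 265, 249.8, 275 and 295 in sham, with every banded library above every sham library, and rose by 0.34 ± 0.09 on the log2 scale (limma, adjusted p = 0.00746). Its highest banded value came from the shallowest library, and the change was 0.25 (adjusted p = 0.0686) without the 2 shallowest libraries. At 4 weeks Acsl5 held 385, 365, 333, 333 and 331 in banding and 337, 325, 391, 293 and 279 in sham, which overlapped and did not pass the test (limma, adjusted p = 0.432).

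Acsl6 (NM_130739), an isoform best known from brain, held 180.2, 122, 209.8 and 143 normalized counts in banding at 8 weeks, against 182, 234, 259, 270.3 and 207 in sham. These groups overlapped, and the fall of 0.51 ± 0.17 (limma, adjusted p = 0.0213) lost its call when any 1 of 4 libraries was left out. Its log2 fold change was -0.37 without banding replicate 3 (adjusted p = 0.102), -0.45 without banding replicate 5 (adjusted p = 0.0682), -0.46 without sham replicate 3 (adjusted p = 0.0527) and -0.44 without sham replicate 4 (adjusted p = 0.0569). At 4 weeks Acsl6 held 170.5, 133, 182, 180.3 and 124 in banding and 195, 245, 155, 231 and 227 in sham and was not called (adjusted p = 0.0673), except without sham replicate 3 (-0.52, adjusted p = 0.0203), without the 7 libraries with high Myl7 (-0.53, adjusted p = 0.0187) and in DESeq2 (adjusted p = 0.0470). As a description, the ratio of Acsl5 to Acsl1 normalized counts within a library lay at 0.0596 to 0.0625 in banding and 0.0207 to 0.0245 in sham at 8 weeks, and at 0.0483 to 0.0639 in banding and 0.0284 to 0.0443 in sham at 4 weeks. These ratios are not per length, so they compare libraries and not the isoforms' abundance. Acss1, the mitochondrial acetyl-CoA synthetase, fell at both times, by 1.03 ± 0.11 at 8 weeks and 0.66 ± 0.10 at 4 weeks on the log2 scale.

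The carnitine shuttle fell at 8 weeks in all 5 members, but its entry enzyme in muscle moved little. Cpt1b (NM_013200), the muscle form of carnitine palmitoyltransferase 1, held 5183, 4476, 5258 and 4722 normalized counts in banded ventricles at 8 weeks, against 5569, 5992, 5545, 5916 and 6244 in sham. The groups lay side by side without overlap, and Cpt1b fell by 0.26 ± 0.07 on the log2 scale (limma, adjusted p = 0.00791). At 4 weeks Cpt1b held 4909.7, 4901, 4773, 5454 and 4569 in banding and 5146, 5437, 4721, 4753 and 4519 in sham, a log2 fold change of 0.00 with a 95% interval of -0.14 to 0.14. Cpt1a (NM_031559), the form best known from liver, held 649, 459, 442 and 593 in banding and 831, 1184, 743, 813 and 1030.4 in sham at 8 weeks. All 4 banded libraries were lower, and Cpt1a fell by 0.78 ± 0.16 (limma, adjusted p = 0.000794). At 4 weeks Cpt1a held 492, 625, 890.3, 656 and 522 in banding and 1081, 927, 835, 687 and 893 in sham, which overlapped through banding replicate 3. The change of -0.49 ± 0.15 at 4 weeks passed the test (limma, adjusted p = 0.0282) but not without replicate 1 (adjusted p = 0.0881) or 5 (adjusted p = 0.0809) of banding, nor without replicate 1 (adjusted p = 0.0844), 2 (adjusted p = 0.0620) or 5 (adjusted p = 0.0545) of sham.

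Within a library, the ratio of Cpt1a to Cpt1b normalized counts had a median of 0.114 in banding and 0.149 in sham at 8 weeks, and 0.120 in banding and 0.177 in sham at 4 weeks. At 8 weeks the highest banded ratio, 0.126, lay under the lowest sham ratio, 0.134, whereas at 4 weeks the groups overlapped. Crat (NM_001004085), carnitine acetyltransferase, which exchanges short acyl groups between carnitine and coenzyme A, had the smallest p of the shuttle. It held 2778, 2135, 2285 and 2445 in banding and 4423, 5211, 4510.3, 5028 and 4997 in sham at 8 weeks, and 2671, 2702, 2699, 2857 and 2541 in banding and 4070.4, 4062, 3886, 4053 and 3913 in sham at 4 weeks. Neither time showed overlap, and the log2 fold changes were -1.01 ± 0.07 (limma, adjusted p = 6.6e-10) and -0.57 ± 0.07 (adjusted p = 1.91e-06). Cpt2, which releases acyl-CoA inside the mitochondrion, changed by -0.83 at 8 weeks and -0.57 at 4 weeks. Mlycd, malonyl-CoA decarboxylase, removes the inhibitor of carnitine palmitoyltransferase 1 and changed by -0.90 and -0.63. Both fell at both times without overlap of the groups.

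**Figure D2:**
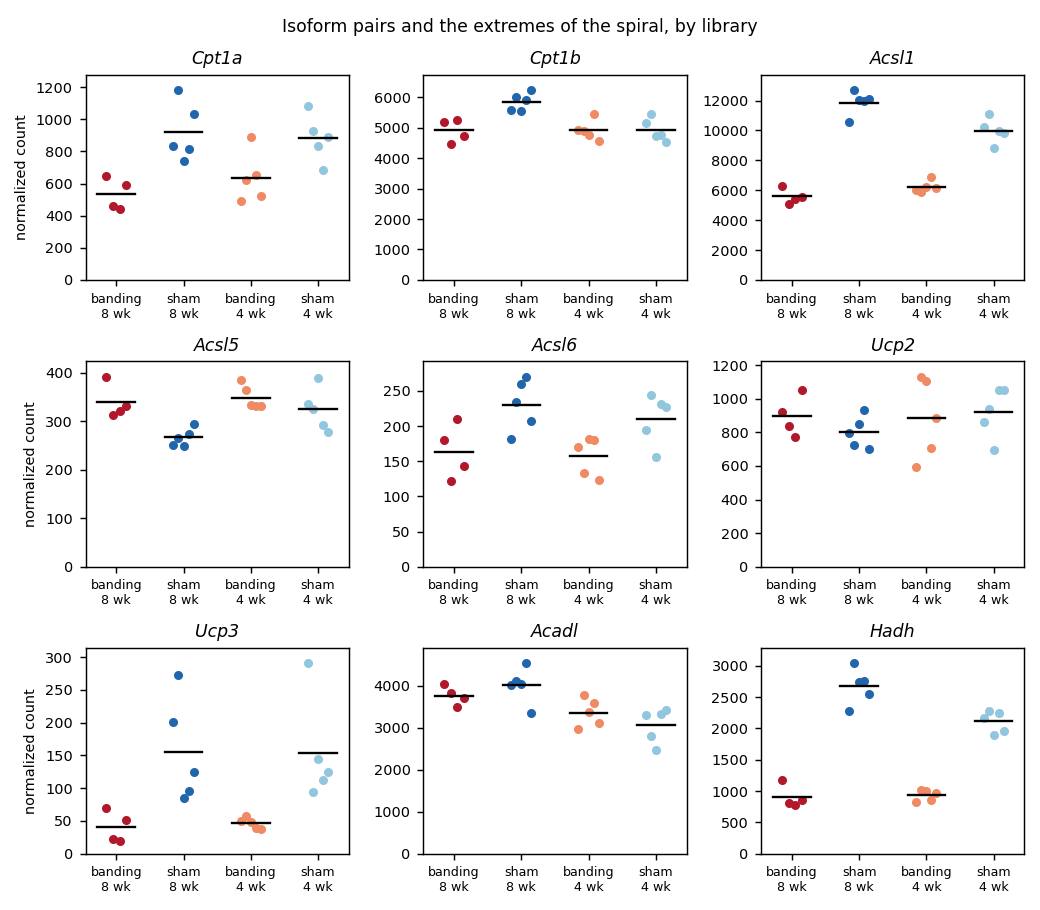
Normalized counts in each library (points) with the group mean (line) for the isoforms of carnitine palmitoyltransferase 1, the long-chain acyl-CoA synthetases, both uncoupling proteins, and Acadl and Hadh of the spiral. Hadh and Acsl1 separate banding from sham at both times, while Acadl and Ucp2 overlap at both.

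In the beta-oxidation spiral 8 of 9 tested members fell at each time, and Acadl was the exception at both. Hadh (NM_057186), the short-chain 3-hydroxyacyl-CoA dehydrogenase, held 1178, 809.7, 769.8 and 852 normalized counts in banded ventricles at 8 weeks, against 2278, 3038, 2747, 2764 and 2546 in sham. At 4 weeks it held 830.1, 1009.9, 1004, 859.9 and 963 in banding and 2169, 2283, 1901, 2246 and 1959.6 in sham. The gap was wide at both times, and the log2 fold changes were -1.58 ± 0.11 at 8 weeks (limma, adjusted p = 3.79e-10) and -1.18 ± 0.10 at 4 weeks (adjusted p = 2.3e-08). Acadl (NM_012819), the long-chain acyl-CoA dehydrogenase, held 4045, 3821, 3497 and 3700.0 in banding and 4009.9, 4119, 4042, 4532 and 3357 in sham at 8 weeks. At 4 weeks Acadl held 2969, 3778, 3378, 3580.3 and 3108 in banding and 3299, 2801, 2463, 3328 and 3415 in sham. The groups overlapped at both times, with log2 fold changes of -0.09 (95% interval -0.29 to 0.12) at 8 weeks and 0.14 (-0.05 to 0.33) at 4 weeks. The other acyl-CoA dehydrogenases fell at both times: Acadvl, for very long chains, by 0.82 at 8 weeks and 0.39 at 4 weeks, Acadm, for medium chains, by 0.98 and 0.50, and Acads, for short chains, by 0.65 and 0.29. The call of Acads at 4 weeks had an adjusted p of 0.031 (limma) and was lost when replicate 2, 3 or 5 of banding or replicate 1 or 2 of sham was left out (adjusted p 0.0516, 0.0553, 0.0888, 0.0573 and 0.0798). As a description, the ratio of Acadl to Acadm normalized counts lay at 0.959 to 1.15 in banding and 0.424 to 0.663 in sham at 8 weeks, and at 0.723 to 0.988 in banding and 0.431 to 0.641 in sham at 4 weeks.

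Acaa2, the mitochondrial 3-ketoacyl-CoA thiolase that ends each round, had the second largest fall of the spiral, 1.27 ± 0.13 on the log2 scale at 8 weeks and 0.63 ± 0.13 at 4 weeks. Hsd17b10, a hydroxyacyl-CoA dehydrogenase that also serves isoleucine breakdown and the mitochondrial RNase P, fell by 0.77 and 0.44. Echs1 (NM_078623), the short-chain enoyl-CoA hydratase, was not tested. Its normalized counts were 0 to 0.668 in banding and 0 to 3.95 in sham at 8 weeks, and 0 to 2.20 in banding and 0 to 1.79 in sham at 4 weeks. With at most 5 recovered reads in a library, these values give no measure of the gene beyond this 1 transcript ID.

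Hadha (NM_130826) and Hadhb (NM_133618) encode the alpha and beta subunits of the mitochondrial trifunctional protein, which carries out the later reactions of the spiral on long chains. Hadha held 3955, 3553, 3501 and 3816 normalized counts in banding and 6160.1, 7473, 6899, 7146 and 6923 in sham at 8 weeks, and Hadhb held 7562, 6289, 6172 and 6359 in banding and 11259, 14138, 12494, 13013 and 13133 in sham. The log2 fold changes of the subunits were close at both times: -0.90 ± 0.07 for Hadha and -0.96 ± 0.08 for Hadhb at 8 weeks, and -0.46 ± 0.07 for Hadha and -0.49 ± 0.07 for Hadhb at 4 weeks. Their ratio stayed between 0.523 and 0.610 over all 19 libraries. The genes lie head to head, and the promoter windows that RefSeq gives them on GRCr8, from 250 bases before to 50 bases after the start, share 200 bases on opposite strands. They are shown because they overlap, at chr6:31907551-31907850 on the plus strand for Hadha and chr6:31907451-31907750 on the minus strand for Hadhb. Capitals mark GGGCGG, the core of an Sp1 box, in Hadha and AGGTCA, the half-site of nuclear receptors, in Hadhb, each as its reverse complement. The Hadhb window holds GGGCGG as well, left in lower case. Among its copies is the marked site of Hadha, which lies in the shared bases and is read there on the other strand.
Hadha: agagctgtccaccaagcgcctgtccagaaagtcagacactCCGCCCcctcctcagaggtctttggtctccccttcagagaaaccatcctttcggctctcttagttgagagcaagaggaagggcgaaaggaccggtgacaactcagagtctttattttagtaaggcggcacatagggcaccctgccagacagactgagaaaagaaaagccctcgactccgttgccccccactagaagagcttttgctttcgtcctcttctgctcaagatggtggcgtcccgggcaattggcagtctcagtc
Hadhb: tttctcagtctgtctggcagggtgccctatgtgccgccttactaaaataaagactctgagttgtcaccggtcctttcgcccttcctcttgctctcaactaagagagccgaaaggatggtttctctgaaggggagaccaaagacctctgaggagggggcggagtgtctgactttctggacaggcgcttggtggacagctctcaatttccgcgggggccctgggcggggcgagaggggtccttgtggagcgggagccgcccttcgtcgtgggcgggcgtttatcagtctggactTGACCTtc

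The auxiliary enzymes, which reposition the double bonds of unsaturated fatty acids so that these can enter the spiral, had a median log2 fold change of -1.13 at 8 weeks and -0.69 at 4 weeks. All 4 fell at both times, and in all 4 the groups did not overlap. Eci1 (NM_017306), a mitochondrial enoyl-CoA isomerase, held 983, 805, 691 and 822 normalized counts in banded ventricles at 8 weeks, against 1521, 1721, 1794, 1897 and 1866 in sham. It fell by 1.10 ± 0.09 (limma, adjusted p = 5.41e-09) at 8 weeks and by 0.67 ± 0.08 (adjusted p = 4.56e-06) at 4 weeks. Eci2 (NM_001006966), a second isomerase found in mitochondria and peroxisomes, held 1067, 841, 898 and 945 in banding and 1292, 1553, 1594, 1623 and 1634 in sham at 8 weeks, and 1131, 1059, 1044, 1139 and 1161 in banding and 1304, 1355, 1279, 1434 and 1277 in sham at 4 weeks. Its changes were the smallest of the 4, -0.71 ± 0.08 (limma, adjusted p = 2.16e-07) and -0.26 ± 0.07 (adjusted p = 0.0112). Decr1, the mitochondrial 2,4-dienoyl-CoA reductase, fell by 1.16 at 8 weeks and 0.71 at 4 weeks. Ech1, a dienoyl-CoA isomerase, averaged 1705 ± 440.0 in banding (n = 4) and 4737 ± 518 in sham (n = 5) at 8 weeks (SD). It fell by 1.50 ± 0.13 at 8 weeks and by 0.91 ± 0.12 at 4 weeks.

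The electron transfer flavoprotein and its dehydrogenase, which collect electrons from the acyl-CoA dehydrogenases, had the smallest median change at 8 weeks, -0.54, and -0.28 at 4 weeks. Etfdh (NM_198742), the membrane-bound dehydrogenase, held 3106, 2294, 2692 and 2613 normalized counts in banding and 3633, 4605, 3912, 4319.7 and 4299.7 in sham at 8 weeks. It held 2669.8, 2688, 2605, 2990.2 and 2647 in banding and 3479, 3685, 3271, 3749.6 and 3227 in sham at 4 weeks. Neither time showed overlap, and the log2 fold changes were -0.64 ± 0.08 (limma, adjusted p = 3.23e-06) and -0.36 ± 0.08 (adjusted p = 0.00212). Etfa (NM_001009668), the alpha subunit of the flavoprotein, held 3643, 2776, 3621 and 2793 in banding and 3475, 4702, 4199.7, 4566 and 4354 in sham at 8 weeks, where replicate 1 of sham lay among the banded libraries. It fell by 0.41 ± 0.10 at 8 weeks (limma, adjusted p = 0.00302), and its change of -0.17 ± 0.10 at 4 weeks was not called (adjusted p = 0.245). Etfb, the beta subunit, changed by -0.54 ± 0.09 at 8 weeks and by -0.28 ± 0.09 at 4 weeks, both called. At 4 weeks the call of Etfb (limma, adjusted p = 0.0288) was lost without replicate 2 or 3 of banding or replicate 2 or 4 of sham (adjusted p 0.0763, 0.0802, 0.0979 and 0.0794).

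In storage and lipolysis all 3 tested members fell at both times. Plin5 (NM_001134637), the perilipin that coats lipid droplets of oxidative tissues, held 304, 195, 236 and 307 normalized counts in banded ventricles at 8 weeks, against 442, 639, 549.9, 545 and 566 in sham. At 4 weeks it held 247, 237, 301, 369 and 293 in banding and 524, 505, 448, 496 and 457 in sham. The groups were apart at both times, with log2 fold changes of -1.09 ± 0.13 (limma, adjusted p = 1.77e-06) and -0.76 ± 0.13 (adjusted p = 0.000145). Lipe (NM_012859), hormone-sensitive lipase, held 523, 332, 276 and 373 in banding and 602, 517, 547, 539.9 and 589 in sham at 8 weeks. Replicate 1 of banding reached into the sham range, and Lipe fell by 0.61 ± 0.13 on the log2 scale (limma, adjusted p = 0.00128). At 4 weeks Lipe held 296, 419, 458, 376 and 407 in banding and 532, 536, 509, 439 and 509.7 in sham. Its fall of 0.38 ± 0.13 at 4 weeks (limma, adjusted p = 0.0383) did not pass without replicate 1, 4 or 5 of banding or replicate 1, 2, 3 or 5 of sham (adjusted p 0.0539 to 0.128). Dgat2, which makes triglyceride from diacylglycerol, had few reads. It ranged over 73.1 to 97.0 in banding and 121 to 249.7 in sham at 8 weeks, and fell by 1.13 ± 0.21 at 8 weeks and 0.80 ± 0.20 at 4 weeks, when the groups overlapped. Pnpla2 (NM_001108509), adipose triglyceride lipase, was not tested, with 0 to 2.00 normalized counts in banding and 0 to 7.35 in sham at 8 weeks and 0 to 2.47 in banding and 0 to 2.34 in sham at 4 weeks.

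Of the uncoupling proteins, carriers of the inner mitochondrial membrane, Ucp3 fell and Ucp2 did not pass the test. Ucp3, the muscle form, held 70.1, 22.9, 18.7 and 51.7 normalized counts in banded ventricles at 8 weeks, against 201, 273, 85.0, 95.6 and 124 in sham. At 4 weeks it held 50.2, 57.2, 48.9, 38.9 and 38.4 in banding and 290.4, 94.9, 145, 113 and 124 in sham. All banded libraries were below all sham libraries at both times, and Ucp3 fell by 1.96 ± 0.37 (limma, adjusted p = 0.000239) at 8 weeks and 1.59 ± 0.35 (adjusted p = 0.00198) at 4 weeks. The 3 highest sham values were those of libraries with high Myl7, and without the 7 such libraries the log2 fold changes were -1.12 (adjusted p = 0.0367) at 8 weeks and -1.31 (adjusted p = 0.00724) at 4 weeks. Ucp2 (NM_019354), the widely expressed form that is also found in macrophages, held 923, 838, 773 and 1052 in banding and 795, 727, 848, 934 and 703 in sham at 8 weeks. At 4 weeks Ucp2 held 595, 1132, 1103, 704 and 885 in banding and 861, 937, 693, 1051 and 1050.3 in sham. These groups overlapped at both times, with log2 fold changes of 0.16 (95% interval -0.17 to 0.49) and -0.08 (-0.39 to 0.23). The ratio of Ucp2 to Ucp3 normalized counts lay at 13.2 to 41.3 in banding and 2.66 to 9.98 in sham at 8 weeks, and at 11.9 to 23.0 in banding and 2.97 to 9.87 in sham at 4 weeks. Acot2 (NM_138907), a mitochondrial thioesterase that splits long-chain acyl-CoA, held 659, 401, 498 and 579 in banding and 1129.6, 1295, 1017, 1120.0 and 1208 in sham at 8 weeks. It fell without overlap, by 1.13 ± 0.11 at 8 weeks (limma, adjusted p = 5.36e-08) and 0.54 ± 0.10 at 4 weeks (adjusted p = 0.000611).

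The promoter window of Ucp3 is shown because it holds AGGTCA more than once. It lies at chr1:164227660-164227959 on the plus strand of GRCr8, and capitals mark its 2 matches.
Ucp3: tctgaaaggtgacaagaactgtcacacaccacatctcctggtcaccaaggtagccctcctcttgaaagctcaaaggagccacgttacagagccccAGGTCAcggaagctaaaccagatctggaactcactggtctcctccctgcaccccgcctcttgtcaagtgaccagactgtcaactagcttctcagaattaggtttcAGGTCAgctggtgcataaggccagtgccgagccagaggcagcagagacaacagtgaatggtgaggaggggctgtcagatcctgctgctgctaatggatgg
RefSeq gave a promoter window for 28 of the 37 members. AGGTCA, read on both strands, was present in 8 of the 28 (28.6%), against 16.2% of all 33469 promoter windows of the same length. GGGCGG was present in 16 of the 28 (57.1%), against 33.1% of all windows. Hadha and Hadhb, whose windows share such a site, both count among the 16. The longer motifs TCAAGGTCA, bound by the estrogen-related receptors, and DR1, the direct repeat of AGGTCA with 1 base of any kind between, bound by PPAR with its partner, each contain AGGTCA. They were present in 0 of the 28 windows, against 0.433% and 0.0538% of all windows. Exact matches this rare would seldom be met in any 28 windows, so the 0 does not set the members apart. These counts describe letters in 300 bases around a start and say nothing of binding.

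The steps were then set beside other gene lists. The median log2 fold change at 8 weeks was -1.13 for the auxiliary enzymes and for the group of uncoupling proteins and thioesterase, -1.09 for storage and lipolysis, -0.90 for the spiral, -0.83 for the carnitine shuttle, -0.77 for activation, -0.63 for uptake and -0.54 for electron transfer. At 4 weeks these medians were -0.69, -0.54, -0.76, -0.46, -0.57, -0.53, -0.17 and -0.28 in the same order of steps. Of 28 mitochondrial enzymes outside fatty acid oxidation, from the citric acid cycle and the respiratory chain among others, 26 fell at 8 weeks, with a median of -0.43 and a range of -0.72 to -0.18. At 4 weeks 9 of the 28 fell, with a median of -0.16. The members' fold changes thus went with falls of smaller median size in other mitochondrial enzymes, and the difference between these lists was not tested.

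**Figure D3:**
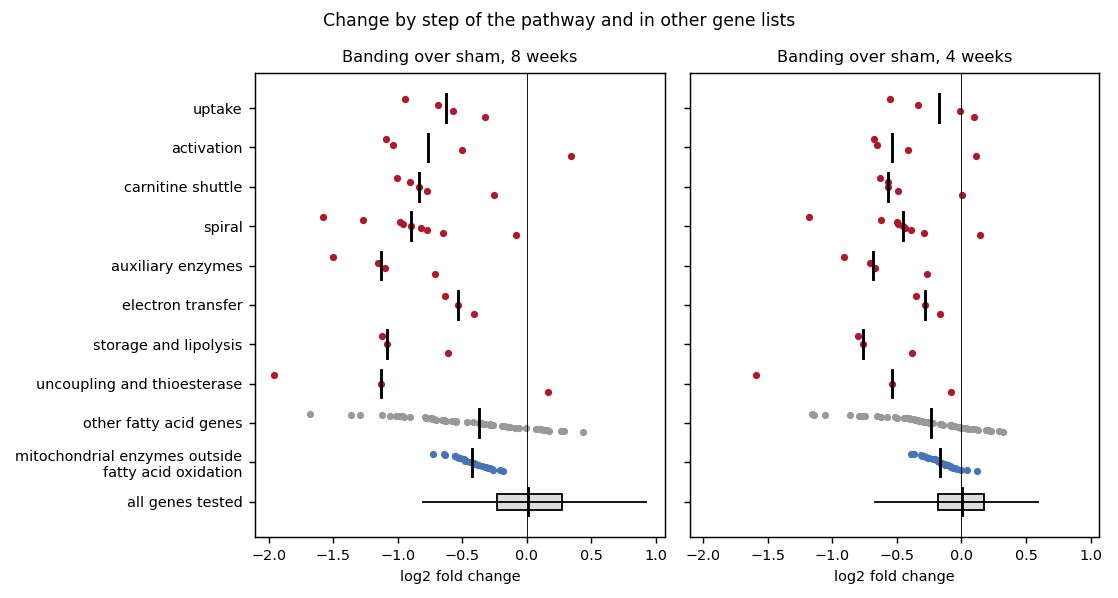
Log2 fold change of banding over sham for each tested gene (points), by step of the pathway (red), for the other fatty acid genes (grey) and for mitochondrial enzymes outside fatty acid oxidation (blue), with medians as black bars; the box gives the quartiles of all tested genes and its line the 5th to 95th percentile. Every step has its median below 0 at both times.

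A wider list of 74 other genes of fatty acid metabolism had 59 tested members. At 8 weeks 33 of them fell and 1 rose, with a median of -0.37, and at 4 weeks 19 fell and 3 rose, with a median of -0.24. Of all tested genes 16.6% fell and 16.7% rose at 8 weeks, and 9.82% fell and 9.27% rose at 4 weeks. The 1 rise of 59 at 8 weeks lay under the share of all tested genes. The 3 rises at 4 weeks are too few to tell from that share, and neither gap was tested. Of the peroxisomal oxidation genes on it, 10 of 15 fell at 8 weeks and 3 of 15 at 4 weeks, and of the storage and lipolysis genes 10 of 15 fell at 8 weeks and 7 of 15 at 4 weeks. The falls with the smallest p included Lpin1, a phosphatidate phosphatase of triglyceride synthesis and coactivator of fatty acid oxidation genes. Lpin1 averaged 519.7 ± 63.5 normalized counts in banding (n = 4) and 1273 ± 84.9 in sham (SD, n = 5) at 8 weeks, and changed by -1.30 ± 0.09 at 8 weeks and -1.05 ± 0.08 at 4 weeks. Fitm2, which acts in lipid droplet formation, changed by -1.36 and -1.14, Acsf2, a medium-chain acyl-CoA synthetase, by -1.12 and -0.87, and Agpat3, an acyltransferase of phospholipid and triglyceride synthesis, by -0.96 and -0.79. All 4 were called at both times without overlap of the groups. The gene that rose at 8 weeks was G0s2, an inhibitor of adipose triglyceride lipase, at 0.44 ± 0.14 (limma, adjusted p = 0.0231). At 4 weeks the genes that rose were Acot9, a mitochondrial thioesterase, at 0.29 ± 0.08 (adjusted p = 0.0148), Them4, a thioesterase-like protein, at 0.32 ± 0.11 (adjusted p = 0.0367), and Hsd17b4, the peroxisomal bifunctional enzyme, at 0.19 ± 0.06 (adjusted p = 0.0463).

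The change from 4 to 8 weeks was then examined within each operation. In banded ventricles 0 of 35 members were called lower and 0 higher at 8 against 4 weeks (limma), where 0.659% of all tested genes fell and 0.485% rose. At an unadjusted p under 0.05, 7 members were lower and 0 higher, where 14% of all tested genes passed in either direction. edgeR called 0, and DESeq2 called 1 lower, Acadvl. The median log2 fold change was -0.10. Acadvl averaged 3816 ± 355 at 8 weeks (n = 4) and 4588 ± 180.0 at 4 weeks (SD, n = 5) in banding. It changed by -0.27 ± 0.07 on the log2 scale (limma, adjusted p = 0.0667), and -0.33 (adjusted p = 0.0457) without banding replicate 1 at 8 weeks. Slc27a1 changed by -0.38 ± 0.13 (adjusted p = 0.162), and by -0.53 (adjusted p = 0.0401) without banding replicate 5 at 8 weeks.

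In sham ventricles part of the pathway rose over the same weeks. At 8 against 4 weeks 13 of 35 rose and 0 fell (limma), where 2.67% of all tested genes rose and 3.86% fell, and the median log2 fold change was 0.25. At an unadjusted p under 0.05, 23 were higher and 1 lower, where 21.3% of all tested genes passed in either direction, and in 9 members the groups did not overlap (3.12% of all tested genes). edgeR called 13 higher and 0 lower, and DESeq2 called 18 higher and 1 lower, Acsl5. The 13 were Cd36, Lpl, Acsl1, Cpt1b, Crat, Acadl, Acadm, Hadh, Hadha, Hadhb, Eci1, Decr1 and Ech1. Decr1 changed most, by 0.48 ± 0.09 (limma, adjusted p = 0.00304), with 1420.1, 1676, 1303, 1480.5 and 1663 normalized counts at 8 weeks and 1212, 1176, 1101, 943 and 974 at 4 weeks. Acadl, which did not pass in either comparison of banding with sham, rose by 0.39 ± 0.09 (adjusted p = 0.0133). The count in sham rested on which libraries were kept. It was 5 without sham replicate 2 or without sham replicate 4 at 8 weeks, and between 6 and 8 without sham replicate 3 or 5 at 8 weeks or sham replicate 1, 3 or 5 at 4 weeks. It was 20 without the 2 shallowest libraries, and 0 without the 7 with high Myl7, which left 2 libraries at 8 weeks and 3 at 4 weeks. Without the 7, the log2 fold change was 0.46 for Ech1, against 0.44 with all libraries, and it was 0.43 against 0.39 for Acadl, 0.44 against 0.48 for Decr1, 0.36 against 0.33 for Eci1, 0.35 against 0.34 for Hadh and 0.33 against 0.35 for Cd36. The call rate over all tested genes was lower too, with 49 of 10926 higher, against 292 with all libraries.

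Cell type markers were set beside this change over the same weeks in sham. Of the cardiomyocyte markers 9 of 10 had a positive log2 fold change, with a median of 0.25, and 1 was called higher. The 8 atrial markers had a median of 0.79 with none called. Of the 7 tested fibroblast markers 6 were negative, with a median of -0.40, and 2 were called lower, each by at least 2-fold. The 8 fibroblast markers summed to 24076 to 39465 normalized counts at 8 weeks and 40098 to 88099 at 4 weeks, without overlap. These sums mostly follow the collagen chain Col3a1, which averaged 27351 over all libraries. All 28 mitochondrial enzymes outside fatty acid oxidation had a positive log2 fold change, with a median of 0.15, and 1 was called. The part of these genes in the rise of the 13 members was not tested.

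**Figure D4:**
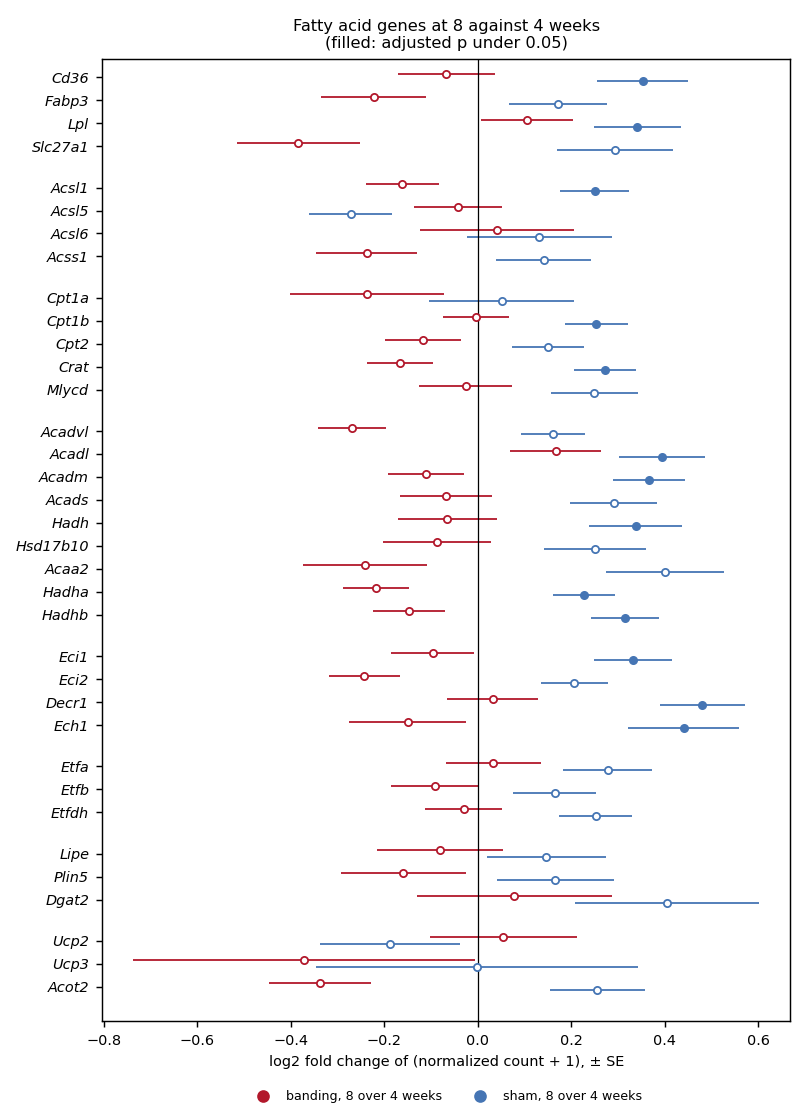
Log2 fold change at 8 over 4 weeks (± SE) for the 35 tested members, in banding (red) and in sham (blue); filled points passed the test. Points of sham lie mostly above 0 (32 of 35) and those of banding mostly below 0 (28 of 35), with 13 filled points, all in sham.

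Whether the banding effect differed between the times was tested as the effect at 8 weeks minus that at 4 weeks. The difference was negative in 33 of 35 members, with a median of -0.37, and 0 members were called lower and 0 higher by limma, where 0% of all tested genes were called lower and 0.0275% higher. At an unadjusted p under 0.05, 22 members were negative and 0 positive, where 11.7% of all tested genes passed in either direction. edgeR called 0 members, and DESeq2 called 8 lower, where it called 30 of all 10926 tested genes lower and 47 higher. The smallest adjusted p was 0.0703 in limma, for Hadha at -0.44 ± 0.10 and for Crat at -0.44 ± 0.10, followed by Hadhb at -0.46 ± 0.11. The most negative differences were those of Slc27a1, -0.68 ± 0.18, and Acaa2, -0.64 ± 0.18. limma called 8 members lower without banding replicate 1 at 8 weeks, 6 without sham replicate 1 at 8 weeks, 1 without sham replicate 2 at 4 weeks, and 13 without the 2 shallowest libraries together. Of all 10926 tested genes it called 10, 10, 4 and 26 lower under these settings, in the same order.

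Libraries of 1 group differed across many members at once. In banding at 8 weeks, replicate 1 was the highest of its group for 27 of 35 members and replicate 3 the lowest for 21. In sham at 8 weeks, replicate 1 was the lowest of its group for 25 of 35 members, and replicate 2 was the highest for 16. Both libraries numbered 1 at 8 weeks, the shallowest of all, thus lay toward the other operation. Replicate 1 of sham at 8 weeks also had the highest Myl7 of all libraries, 17580.0, while replicate 1 of banding at 8 weeks held 30.0. Whether depth or atrial tissue had a part in this was not tested.

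**Figure D5:**
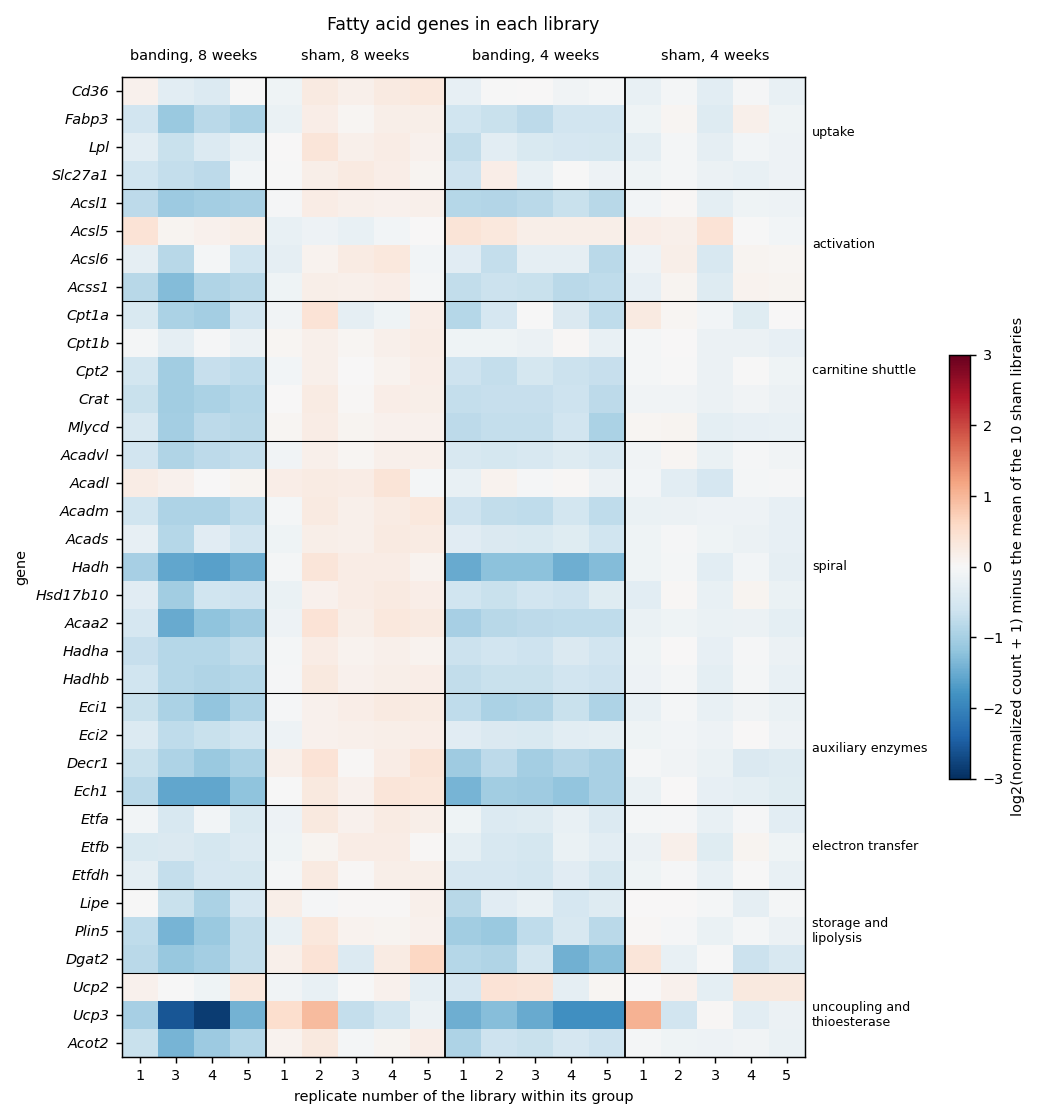
Log2 of the normalized count plus 1 in each of the 19 libraries, minus the gene's mean over the 10 sham libraries, for the 35 tested members in rows. Blue cells are below the sham mean and red cells above; banded libraries are blue in most rows, with Acadl, Acsl5 and Ucp2 as exceptions.

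In bulk tissue, fewer cells of a type and less RNA per cell cannot be told apart, and marker levels are given for that reason. Of all tested genes 16.6% fell and 16.7% rose at 8 weeks, and 9.82% fell and 9.27% rose at 4 weeks. Of the 10 measured cardiomyocyte markers 3 fell and 1 rose at 8 weeks, and 2 fell and 1 rose at 4 weeks. Of the 8 atrial markers 2 fell and 1 rose at each time. Their median log2 fold change was -1.05 at 8 weeks and -0.60 at 4 weeks. The summed normalized counts of the 10 measured cardiomyocyte markers of 11 listed ranged over 402222 to 461261 in banding and 560419 to 652158 in sham at 8 weeks, and over 444108 to 520855 in banding and 468780 to 624797 in sham at 4 weeks. Myh6 alone, the fast adult myosin chain, ranged over 96548 to 115287 in banding and 231951 to 289365 in sham at 8 weeks. The other 9 cardiomyocyte markers summed to 305675 to 358436 in banding and 299021 to 362793 in sham at 8 weeks, and to 290892 to 367694 in banding and 277317 to 348589 in sham at 4 weeks, ranges that overlap at both times. Of the macrophage markers 7 of 8 rose at 8 weeks and 5 of 8 at 4 weeks, with sums of 4467 to 5349 in banding and 2512 to 3486 in sham at 8 weeks, and 3855 to 5034 in banding and 2402 to 4433 in sham at 4 weeks. Of 9 endothelial markers 4 rose at 8 weeks and 2 at 4 weeks. Endothelial sums were 8655 to 13162 in banding and 7852 to 8984 in sham at 8 weeks. At 4 weeks these sums were 9500 to 12721 in banding and 8631 to 10379 in sham. Of the 3 tested red cell markers 2 rose at 8 weeks, with a median log2 fold change of 1.74 over the 3. The 4 measured red cell markers summed to 2363 to 12097 in banding and 1445 to 3097 in sham at 8 weeks, and to 1547 to 3697 in banding and 1477 to 3663 in sham at 4 weeks, where none was called. Of 7 tested fibroblast markers 1 fell at each time, with sums of 31488 to 35749 in banding and 24076 to 39465 in sham at 8 weeks, and 38924 to 52681 in banding and 40098 to 88099 in sham at 4 weeks. Col3a1 had the highest mean of the markers in these fibroblast sums. All 7 tested adipocyte markers had a negative log2 fold change at both times, and 1 fell at 8 weeks and 2 at 4 weeks. The 10 adipocyte markers summed to 2595 to 3645 in banding and 3084 to 4962 in sham at 8 weeks, and to 3128 to 4031 in banding and 3582 to 4431 in sham at 4 weeks. Cidec was at 0 in every library, and Adipoq, the defining hormone of fat cells, lay at 0 to 51.6 in banding and 0 to 295 in sham at 8 weeks. Fabp4, which is also on the list of other fatty acid genes, averaged 2957 over all libraries, against 50.4 for Adipoq. The adipocyte sums thus mostly follow Fabp4. The part of these markers in the members' changes was not tested.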

How the data were processed

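Right ventricles were snap frozen, RNA was extracted with Trizol, and libraries were made from 800 ng with TruSeq Ribo-Zero Gold, per the labels' protocols. STAR, DESeq2 and the build rn6 are named in the submitters' processing notes, without versions. How reads were counted, and with which strand setting, is not given in the sources used here, so a gene cannot be told apart from an overlapping or antisense one.

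The authors deposited normalized counts, a signal equal to a library's reads over its size factor. In every library 100% of the values were whole multiples of 1 step within 0.001, so reads could be recovered. The authors also deposited DESeq2 tables with log2 fold changes and p-values, whose sign was set here from the group means.

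Tests used limma 3.58.1 in R 4.3.3 on log2(value + 1), with all 4 groups in 1 fit, an empirical Bayes trend, 2-sided, and Benjamini-Hochberg adjustment over 10926 IDs. Fold changes are on this scale, which understates changes of low genes. The limma fit, and no other step, was tested on simulated data. The simulation used the same spread setting for all genes and no shift of many genes within a library. edgeR 4.0.16 and DESeq2 1.42.0 on the recovered reads were alternatives. Every member could be named; values per library were given for the smallest and largest p per step, members that rose, and sets of isoforms. Of the 74 other fatty acid genes, up to 4 falls and 4 rises with the smallest p were named per comparison. The members and lists were chosen with earlier results of these data known. Member symbols came from the authors' deposited tables. So did those of the other listed genes, with RefSeq symbols used where these tables lacked the name. Promoter windows came from RefSeq tables of GRCr8, and only the windows carry coordinates here. Counting error sets a floor on the precision of low members, and the spread between libraries sets that of the others.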

Additional observations from a re-analysis of the deposited data

Results flagged for a closer look

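In 140 groups, each 1 member in 1 of the 4 groups of libraries, 6 held a library that stood apart from the others of its group by a 95% gap test, where chance flags about 1 in 20, or 7 of 140. Hsd17b10 held 1079 normalized counts in replicate 5 of banding at 4 weeks, and the next value was 926. Hadhb held 7562 in replicate 1 of banding at 8 weeks, the shallowest library, above the next value of 6359. Eci2 held 1292 in replicate 1 of sham at 8 weeks, the second shallowest library, below the next value of 1553. Etfdh held 2990.2 in replicate 4 of banding at 4 weeks, above the next value of 2688. Lipe held 439 in replicate 4 of sham at 4 weeks, below the next value of 509. Ucp3 held 290.4 in replicate 1 of sham at 4 weeks, a library with a Myl7 of 7268, and the next value was 145.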

How the results depend on the processing

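For banding against sham at 8 weeks, 32 falls and 1 rise were found under pseudocounts of 0.5 and 5, no filter, a minimum mean of 50, TMM, quantile normalization, the robust fit, edgeR, DESeq2, a fit of only these groups and sums over all IDs of a gene. At 4 weeks the falls ran from 26 to 28 under these settings. Leaving out 1 library gave 30 to 32 falls and 1 rise at 8 weeks, and 23 to 27 falls at 4 weeks. At 4 weeks the adjusted p was 0.0524 for Cpt1a in the robust fit, 0.0558 for Lipe with no filter and 0.0552 for Etfb in the fit of only these groups. The 1 rise at 8 weeks became 0 without the 2 shallowest libraries.

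For 8 against 4 weeks in banding, the 0 falls became 2 under quantile normalization, 1 in DESeq2, 3 without the 2 shallowest libraries, and 0 to 1 when 1 library was left out. In sham, the 13 rises became 5 under quantile normalization, 20 without the 2 shallowest libraries, 0 without the 7 libraries with high Myl7, and 5 to 18 when 1 library was left out. The 0 falls in sham became 1 in DESeq2 and 0 to 1 when 1 library was left out. For the difference between the banding effects, the 0 negative calls became 8 in DESeq2, 13 without the 2 shallowest libraries, and 0 to 8 when 1 library was left out. The cause was not tested. No member reversed a called direction under any setting run.

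The labels do not say that replicate numbers pair the samples, and correlations of same-numbered libraries ran from -0.276 to 0.323. These were not set beside correlations of differently numbered libraries, so they cannot show whether the numbers pair the samples. With the replicate number as a block, 32 members fell and 1 rose at 8 weeks, 27 fell at 4 weeks, 12 rose in sham over time, and 0 were called in the other comparisons. Echs1 and Pnpla2 had at most 7 recovered reads in a library, where the tested members had 16 to 31512. The cause was not tested.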

Other observations

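Within a library, the ratio of Etfa to Etfb normalized counts, both subunits of the electron transfer flavoprotein, lay at 1.53 to 2.17 in banding and 1.50 to 1.83 in sham at 8 weeks, and at 1.50 to 1.79 in banding and 1.38 to 1.76 in sham at 4 weeks. The ratio of Acsl6 to Acsl1 lay at 0.0239 to 0.0389 in banding and 0.0172 to 0.0226 in sham at 8 weeks, and at 0.0202 to 0.0293 in banding and 0.0176 to 0.0233 in sham at 4 weeks. These are descriptions that carry no test.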
